A study of Mus musculus with 8 samples.

Results

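The libraries described here were the 2 labelled hnRNPK-KD and the 2 control shRNA libraries, 4 of the 8 in the series, chosen by their labels alone. All came from E14 mouse embryonic stem cells (ESCs), grown on gelatin with LIF and the inhibitors CHIR99021 and PD0325901, infected with an shRNA lentivirus and selected with puromycin. The control cells carried the scrambled shRNA NG and the labelled cells an shRNA against Hnrnpk, in biological duplicates, while the other 4 libraries came from Sox2-KD and Cdk9-KD cells. Polyadenylated RNA was counted per gene, and the question was which mRNAs differ when hnRNPK is knocked down. Which of the 2 hnRNPK shRNAs each library received is not given, so that the shRNA and the replicate cannot be told apart. Total counts were 17649261 and 17719366 in the labelled libraries and 17681727 and 17717203 in the control libraries, and levels are given as TMM-normalized CPM (counts scaled to a common library size), which compare a gene between libraries and not genes with each other.

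hnRNPK is a heterogeneous nuclear ribonucleoprotein that binds C-rich RNA and single-stranded DNA through KH domains, a fold it shares with the poly(C)-binding proteins. It acts in splicing, transcription, mRNA stability and translation, and it is known as a cofactor of p53. With Polycomb repressive complex 1 it takes part in Xist-mediated silencing.

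The target sequences of the shRNAs are shown because they tell which transcripts the knockdown could reach. They are written in lower case, and a capital marks a base of a pseudogene that differs from the shRNA.

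NG-shRNA: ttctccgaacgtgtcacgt
hnRNPK-shRNA1, identical in Hnrnpk and Gm7964: cggattaaacaaattcgtcat
hnRNPK-shRNA1 site in Gm4130: cggattaaacaaattTgtcat
hnRNPK-shRNA2, identical in Hnrnpk, Gm4130 and Gm7964: gggttcagtgctgatgaaact

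Hnrnpk (ENSMUSG00000021546.18) lies on the − strand of chromosome 13 in GRCm38, the assembly that mm10 names. The hnRNPK-shRNA1 site was at chr13:58393312-58393332, in coding exon 17 of 18, and 13 of the 34 annotated transcripts held it. The hnRNPK-shRNA2 site was at chr13:58394136-58394156, in coding exon 14 of 18, in 11 of the 34 transcripts. The Gm4130 site differed by C16T, counted from 1 at the 5′ end of the shRNA1 target. For the control sequence no transcript match was found, allowing 2 mismatches.

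Hnrnpk itself was lower in only 1 of the 2 labelled libraries. Its level was 697 CPM in replicate 1 and 1144 CPM in replicate 2, against 1094 and 1131 CPM in the control libraries. Replicate 1 thus held 62.7% of the control mean and replicate 2 held 103%, above both control libraries. The log2 fold change (log2FC, labelled minus control) was −0.27 ± 0.20 (SE) over both replicates, with an adjusted p of 0.808. For replicate 1 alone it was −0.70 ± 0.18 (adjusted p = 0.643), and for replicate 2 alone 0.03 ± 0.17 (adjusted p = 0.994). The processed pseudogene Gm7964, which shares both shRNA sites, had 31.1 and 57.0 CPM in the labelled libraries and 58.6 and 55.9 CPM in control. Its reads and those of Hnrnpk cannot be separated with certainty. Gm4130 had 6 and 14 counts in the labelled libraries against 18 and 16, and Gm14542 had 0 counts in every library. Replicate 2 is therefore called a library labelled hnRNPK-KD throughout, and each replicate is shown by itself.

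**Figure D1:**
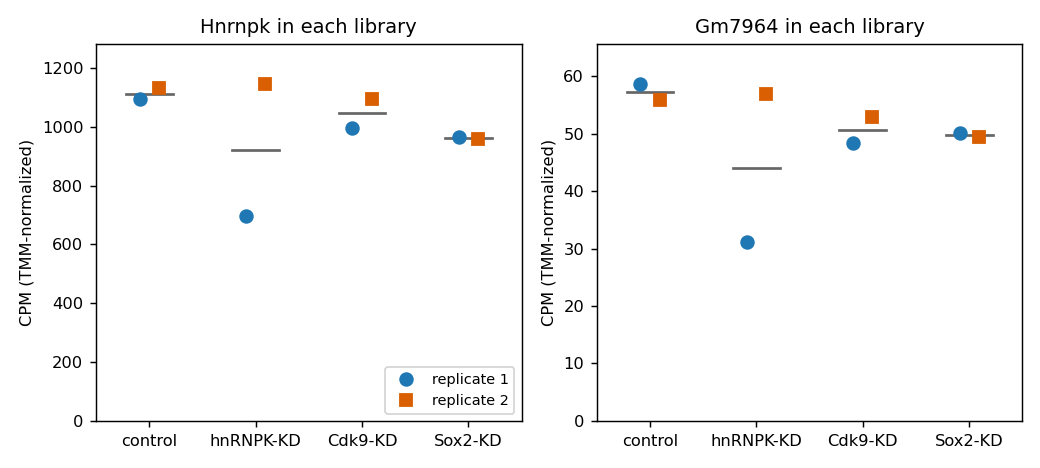
Levels of Hnrnpk and of its pseudogene Gm7964 (CPM, vertical axis from 0) in the 8 libraries by group, with circles for replicate 1, squares for replicate 2 and a bar for the group mean. Replicate 1 of hnRNPK-KD is the lowest library for both genes, and replicate 2 lies with the control libraries.

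The cells carried the markers of ESCs in every library. Summed over 10 ESC markers, the level was 8112 and 7725 CPM in the labelled libraries and 8255 and 7691 CPM in control. Over both replicates, none of the 10 passed an unadjusted p of 0.05 in the edgeR quasi-likelihood test. Among markers of other cells, the trophectoderm markers summed to 34.5 and 94.5 CPM in the labelled libraries against 27.4 and 41.0 CPM, of which Cdx2 gave 20.3 and 85.1 CPM. The fibroblast markers summed to 11.8 and 9.36 CPM against 18.6 and 16.0 CPM, with Dcn, Twist2 and Prrx1 at 0 in all 4 libraries. The part of these markers in the results below was not tested. Between replicates, the SD of the log2 difference over 12523 genes was 0.43 in the labelled libraries and 0.39 in control, and 12.5% and 9.57% of the genes differed by more than 0.6.

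With an absolute log2FC over 0.6 and an adjusted p under 0.05 required, the edgeR quasi-likelihood test called 0 of 16504 genes (0.0%). At an unadjusted p under 0.05 there were 1325 genes, 574 higher (3.48%) and 751 lower (4.55%), and the smallest adjusted p was 0.0761, for Nt5e. Both labelled libraries lay above both control libraries for 3367 genes (20.4%) and below both for 3092 (18.7%). Other tests on the same counts made calls. DESeq2 called 74 genes (40 higher, 34 lower), the likelihood ratio test of edgeR 87 (50 and 37) and its exact test 81 (46 and 35), and all 3 called 62 genes, 38 higher and 24 lower. For replicate 1 alone the quasi-likelihood test called 0 genes (0.0%), with 965 at an unadjusted p under 0.05, of which 341 were higher (2.07%) and 624 lower (3.78%). For replicate 2 alone it also called 0 (0.0%), with 1246 at that level, 535 higher (3.24%) and 711 lower (4.31%). DESeq2 called 35 and 63 genes in these single-replicate comparisons, and the likelihood ratio test 47 and 92. A single library was assumed there to vary like the other groups, since it has no spread of its own.

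The genes with the smallest p and both replicates on one side of control are given next. They were chosen for not overlapping, so their separation is a description. Each of the 20 was among the 62 that the other 3 tests called, and none passed the adjusted threshold in the quasi-likelihood test.

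Among the 10 higher genes, Nt5e, which encodes the ectonucleotidase CD73 that makes adenosine from AMP, had 34.8 and 43.4 CPM in the labelled libraries against 8.90 and 4.07 CPM in control. Its log2FC was 2.59 ± 0.31, and both labelled libraries held over 5 times the control mean (536% and 670%). Bmp4, a ligand of the BMP pathway, had 49.2 and 71.5 CPM against 17.4 and 27.6 CPM (log2FC 1.43 ± 0.24, adjusted p = 0.173). Both genes were thus well above control in the replicate with reduced Hnrnpk and in the one without. Smarcd1, a subunit of the BAF chromatin remodelling complex, had 129 and 141 CPM against 65.0 and 70.6 CPM. Dnmt3l, the cofactor of the de novo DNA methyltransferases without catalytic activity of its own, had 156 and 151 CPM against 86.4 and 78.9 CPM. Ddx58, which encodes the cytosolic RNA sensor RIG-I, had 60.7 and 57.8 CPM against 32.3 and 28.5 CPM. For these 3 the replicates lay closer to each other than to control. The metal transporter Slc39a14 had 32.2 and 31.3 CPM against 11.9 and 10.5 CPM. The receptor tyrosine kinase Epha1 had 10.1 and 8.50 CPM against 2.87 and 1.60 CPM. The other members were the motor protein Kifc3, the guanine nucleotide exchange factor Arhgef5 and Islr2, a membrane protein of neurons, with log2FC of 1.54 ± 0.26, 1.87 ± 0.32 and 1.38 ± 0.24. Islr2 was the only one of the 3 with the higher level in replicate 1 (26.5 against 17.2 CPM).

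Among the 10 lower genes, BC067074 had 9.97 and 11.2 CPM in the labelled libraries against 33.3 and 30.5 CPM, a log2FC of −1.59 ± 0.21 (adjusted p = 0.0930). Ank, a transporter that exports pyrophosphate and ATP, had 3.99 and 5.06 CPM against 15.8 and 28.8 CPM (log2FC −2.30 ± 0.34). Hap1, the huntingtin-associated protein, had 90.8 and 82.0 CPM against 152 and 148 CPM. The control libraries lay close to each other for BC067074 and Hap1 and far apart for Ank. Smc1b, the cohesin subunit of meiosis, had 0.704 and 1.45 CPM against 7.15 and 14.3 CPM, and the homeobox gene Obox6, one of a family of close copies whose counts are uncertain, had 0.469 and 1.11 CPM against 3.15 and 7.96 CPM. Dkk3, a secreted member of the Dickkopf family, had 4.10 and 6.87 CPM against 12.9 and 25.2 CPM. For Smc1b, Obox6, Ank and Dkk3 the control libraries were far apart, replicate 2 being the higher. Others were the myosin Myo5c (log2FC −1.02 ± 0.21), the tetraspanin Tspan4 (−1.05 ± 0.23) and the kinesin Kif21b (−1.14 ± 0.25).

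**Figure D2:**
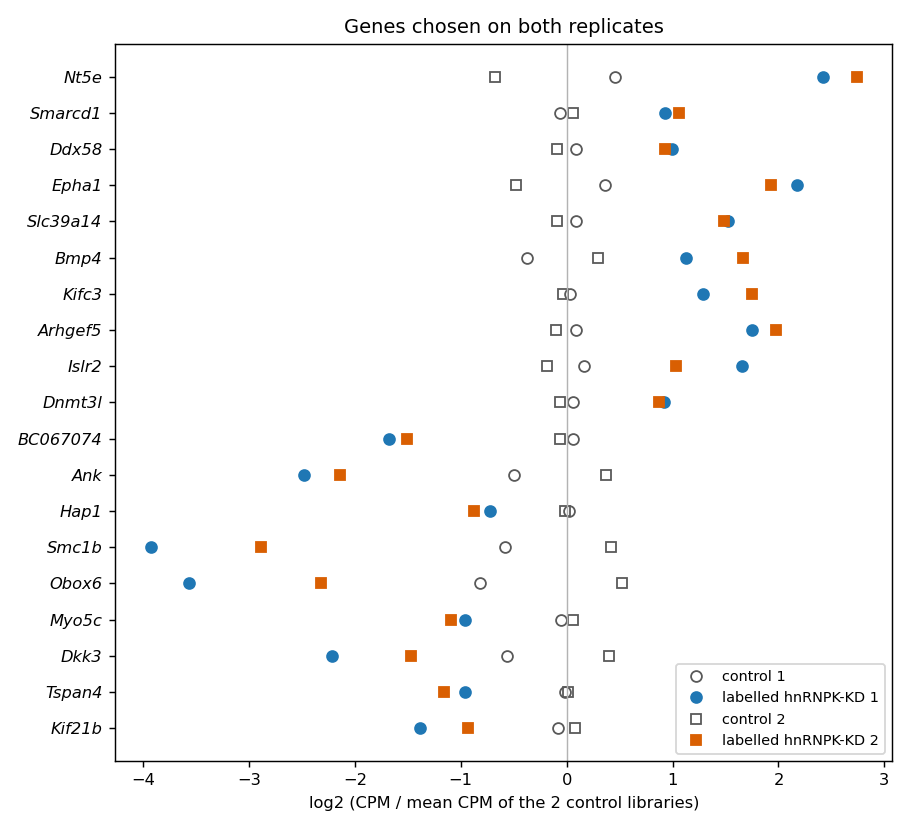
Level of the genes chosen on both replicates in the 4 libraries as log2 of its CPM over the mean CPM of the 2 control libraries (horizontal axis), with open symbols for control, filled symbols for the labelled libraries, circles for replicate 1 and squares for replicate 2. The genes were chosen so that the filled symbols lie on one side of the open ones, and Smc1b and Obox6 show the widest distance between labelled replicates.

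The same genes were set beside the other knockdowns, whose comparisons use the same control libraries. Nt5e had 36.2 and 41.4 CPM in Cdk9-KD and 41.2 and 49.6 CPM in Sox2-KD, a log2FC against control of 2.58 ± 0.31 (adjusted p = 0.0191) and 2.81 ± 0.31 (adjusted p = 0.00232). All 6 knockdown libraries were above both control libraries for Nt5e. Over the 10 higher genes the log2FC against control ran from 0.54 to 2.58 in Cdk9-KD and from 0.34 to 2.93 in Sox2-KD, beside 0.89 to 2.59 in hnRNPK-KD. Over the lower genes named above it ran from −2.81 to −0.40 in Cdk9-KD and from −2.76 to −0.27 in Sox2-KD, beside −3.31 to −0.80 in hnRNPK-KD. Dnmt3l had 106 and 134 CPM in Cdk9-KD and 218 and 185 CPM in Sox2-KD. In the direct contrast with Cdk9-KD, which leaves the control libraries out, the quasi-likelihood test called 0 of 16504 genes (0.0%). At an unadjusted p under 0.05 hnRNPK-KD was above Cdk9-KD for 378 genes (2.29%) and below it for 565 (3.42%), and DESeq2 called 49 genes.

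Of the 20 genes, 7 had an unadjusted p under 0.05 in that contrast, and none passed the adjusted threshold. Of all genes, 2.29% were higher and 3.42% lower at that level. The 20 were chosen on the same hnRNPK-KD libraries that enter the contrast, which favours small p-values there, so the 7 are a description. BC067074 was lower than in Cdk9-KD, where it had 23.5 and 22.4 CPM, by a log2 difference of −1.11 ± 0.21 (adjusted p = 0.340). Slc39a14, with 21.6 and 12.8 CPM in Cdk9-KD, was higher by 0.89 ± 0.24 (adjusted p = 0.555). Islr2, with 40.9 and 44.5 CPM there, was lower by −0.97 ± 0.23 (adjusted p = 0.484). The other 4 were Bmp4 (−0.54 ± 0.23), Ank (−0.94 ± 0.34), Hap1 (−0.40 ± 0.13) and Dnmt3l (0.36 ± 0.16). The other 13 genes had an unadjusted p of 0.05 or more, which does not show that their levels were alike.

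The replicates often lay on opposite sides of control. Replicate 1 was above both control libraries and replicate 2 below both for 1466 genes (8.88%), and the reverse held for 1121 genes (6.79%). The genes with the smallest p in replicate 1 alone were Islr2, Nt5e, Zyx, Alcam and Epha1 among the higher and BC067074, Ank, Smc1b, Klhl13 and Aurkc among the lower. Zyx, a protein of focal adhesions, had 21.7 CPM in replicate 1 and 14.4 CPM in replicate 2 against 7.60 and 7.68 CPM in control. Alcam, a cell adhesion molecule, had 7.50 and 4.19 CPM against 1.30 and 1.09 CPM. Aurkc, the Aurora kinase of germ cells, had 6.80 and 18.0 CPM against 26.5 and 37.1 CPM, and Klhl13, a substrate adaptor of a ubiquitin ligase, 164 and 282 CPM against 359 and 630 CPM. For all 4 of these genes replicate 2 lay between replicate 1 and control, an order that the choice on replicate 1 favours.

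The genes with the smallest p in replicate 2 alone were Lefty2, Nt5e, Pdk1, Peg10 and Trh among the higher and Baz1a, Uba1y, BC067074, Hormad1 and Slc38a4 among the lower. Lefty2, an inhibitor of Nodal signalling, had 44.0 CPM in replicate 1 and 108 CPM in replicate 2 against 29.7 and 18.8 CPM, with a log2FC in replicate 2 of 2.15 ± 0.26 (adjusted p = 0.0971). Peg10, an imprinted gene derived from a retrotransposon, had 225 and 767 CPM against 129 and 89.0 CPM, and Trh, the thyrotropin-releasing hormone gene, 376 and 675 CPM against 183 and 116 CPM. Replicate 1 was also above both control libraries for these 3 genes, and since they were chosen on replicate 2, its greater distance follows from the choice. Baz1a, the ACF1 subunit of ISWI remodelling complexes, had 14.9 and 4.71 CPM against 25.6 and 31.9 CPM. Hormad1, a protein of the meiotic chromosome axis, had 17.1 and 3.61 CPM against 27.7 and 33.3 CPM. Slc38a4, an amino acid transporter, had 243 and 149 CPM against 300 and 324 CPM, and Uba1y, a Y-linked copy of Uba1 whose counts are uncertain, 63.8 and 41.6 CPM against 92.9 and 85.5 CPM. For each of these 4 lower genes, replicate 1 lay between replicate 2 and control.

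Gene lists that fit hnRNPK and ESCs were read against all 16504 genes, whose median log2FC was 0.02 over both replicates, −0.01 for replicate 1 and −0.02 for replicate 2. In no list did a member pass the adjusted threshold of the quasi-likelihood test, while the other tests called some members, Nt5e, Bmp4, Eomes, Lefty2, Pdk1 and Idi1 among them. The counts below are of members at an unadjusted p under 0.05, and the words higher and lower describe levels only. Of all genes, 3.48% were higher and 4.55% lower at that level over both replicates in the quasi-likelihood test. Both replicates lay above both control libraries for 20.4% of all genes and below both for 18.7%.

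RNA-binding proteins came first. The mRNA of Pcbp1, a poly(C)-binding paralog, had 332 and 362 CPM against 331 and 392 CPM, and Pcbp2 564 and 616 CPM against 502 and 586 CPM. Of the 4 paralogs 0 reached that level over both replicates, and in replicate 1 alone Pcbp3 and Pcbp4 were lower (log2FC −1.74 ± 0.44 and −0.57 ± 0.22). Of 26 other hnRNP and related proteins, 2 were higher and 0 lower, and the median log2FC was 0.11. Hnrnpa2b1 had 1645 and 1618 CPM against 1243 and 1262 CPM (log2FC 0.38 ± 0.15), and Hnrnpr 211 and 208 CPM against 169 and 165 CPM. Hnrnpa1 lay on both sides of control, with 1238 and 1989 CPM against 1520 and 1830 CPM.

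Of 28 SR proteins, their kinases and 3′ splice site factors, 3 were higher and 0 lower, and the median log2FC was 0.14. Both replicates lay above both control libraries for 13 of them, against 20.4% of all genes. The kinase genes Clk4 and Clk2, which phosphorylate SR proteins, had 61.9 and 57.5 CPM against 45.3 and 34.3 CPM, and 82.1 and 77.9 CPM against 70.1 and 46.2 CPM. Son, a nuclear speckle protein, had 714 and 609 CPM against 533 and 434 CPM. U2af1, the small subunit of the factor at the 3′ splice site, had 189 CPM in replicate 1 and 287 CPM in replicate 2 against 249 and 257 CPM. In the group of P-TEFb, 7SK snRNP and super elongation complex genes, which control the release of paused polymerase, 2 of 15 were higher and 0 lower. Hexim1, the inhibitor of P-TEFb in the 7SK snRNP, had 98.1 and 88.4 CPM against 65.2 and 63.6 CPM (log2FC 0.53 ± 0.15), and Aff4, the scaffold of the super elongation complex, 380 and 391 CPM against 274 and 277 CPM. Both labelled libraries were above both control libraries for these genes.

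Of 27 tested core and naive pluripotency genes, 1 was higher and 2 lower, and the median log2FC was 0.01. Pou5f1 had 719 and 747 CPM against 720 and 751 CPM, Sox2 479 and 520 CPM against 412 and 530 CPM, and Esrrb 885 and 875 CPM against 796 and 819 CPM. Nanog had 772 CPM in replicate 1 and 594 CPM in replicate 2 against 846 and 746 CPM, so that replicate 2 alone was below both control libraries. The genes at that level were Utf1, a chromatin factor of ESCs (41.4 and 44.8 CPM against 25.8 and 30.9 CPM), Fbxo15 (170 and 179 CPM against 222 and 223 CPM) and Dppa3 (1.99 and 0.873 CPM against 2.08 and 8.13 CPM). Dppa3 was far apart between the control libraries. Alpl, which encodes tissue-nonspecific alkaline phosphatase, had 143 and 235 CPM against 187 and 270 CPM.

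Of 12 tested formative pluripotency genes, 2 were higher (Otx2 and Zic2) and 2 lower (Dnmt3a and Grhl2). Otx2, a transcription factor of the exit from the naive state, had 3.17 and 6.29 CPM against 1.52 and 1.78 CPM, and Zic2 20.9 and 54.3 CPM against 12.7 and 18.96 CPM, so that replicate 1 barely exceeded control replicate 2. The de novo methyltransferase Dnmt3a had 34.1 and 30.8 CPM against 43.9 and 50.9 CPM, and Grhl2 1.88 and 1.57 CPM against 1.86 and 8.25 CPM. The median of the list, 0.02, turned with the control library used. It was −0.16 with control replicate 1 left out and 0.31 with the other left out.

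Of 13 tested primitive streak and mesendoderm genes, 6 were higher and 0 lower over both replicates, and the median log2FC was 0.96. Against the same control libraries the median of this list was 0.89 in Cdk9-KD and 1.38 in Sox2-KD. The 6 higher members are given next. Besides Bmp4 and Lefty2, given above, they were Eomes, a T-box factor of the streak and trophoblast (8.09 and 7.92 CPM against 3.83 and 2.58 CPM), Lefty1 (3.69 and 9.60 CPM against 2.65 and 0.859 CPM), the Wnt ligand Wnt8a (1.41 and 0.349 CPM against 0.169 and 0.286 CPM) and the homeobox gene Evx1. Evx1 had 9 and 8 counts in the labelled libraries and 0 and 1 in control, too few for a fold. T (Brachyury) had 13.1 and 25.7 CPM against 10.5 and 26.1 CPM, so the replicates overlapped control for this defining gene. Not all members were higher. Gsc had 0.762 and 0.407 CPM against 1.18 and 0.974 CPM, below both control libraries in both replicates. Nodal was at 34.4 CPM in replicate 2, below the 46.4 and 52.3 CPM of control (log2FC −0.53 ± 0.23, unadjusted p of 0.0401 in the edgeR test). Without control replicate 1 the median was 0.24. Summed over the 13 genes, the levels were 204 and 287 CPM against 122 and 157 CPM. Most of that difference lay in Lefty2 (44.0 and 108 CPM against 29.7 and 18.8 CPM) and Bmp4 (49.2 and 71.5 CPM against 17.4 and 27.6 CPM). The sum is therefore not a measure of the whole list.

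In the trophectoderm list 2 of 12 were higher (Eomes and Peg10) and 1 lower (Tfap2c, with 32.5 and 17.5 CPM against 43.4 and 43.0 CPM). Cdx2, the master regulator of trophectoderm, was at 20.3 CPM in replicate 1 and at 85.1 CPM in replicate 2, against 19.8 and 35.1 CPM, a log2FC of −0.46 ± 0.34 in replicate 1 and 1.62 ± 0.31 in replicate 2. Of 7 tested neuroectoderm genes 2 were higher, Islr2 and the low Sox11 (7.21 and 11.1 CPM against 3.83 and 2.06 CPM). Of 14 tested primitive endoderm genes 0 reached that level in either direction. Of 7 tested fibroblast genes 1 was lower, Thy1 (1.76 and 0.989 CPM against 3.38 and 2.35 CPM). Of 13 tested immediate early genes 1 was higher, Myc, with 10.4 and 25.0 CPM against 3.89 and 12.0 CPM.

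Of 11 tested ectonucleotidase and adenosine genes, including the deaminase Ada and the receptor Adora2b, Nt5e was the 1 higher member and 3 were lower. In both replicates 9 lay below both control libraries, against 18.7% of all genes. Enpp5 lay between the control libraries in both. Entpd2 had 0.821 and 0.466 CPM against 1.35 and 1.72 CPM, and Enpp3 0.704 and 1.40 CPM against 1.63 and 2.86 CPM. Entpd3 had 2 and 3 counts against 16 and 13. The median log2FC was −0.47, or −0.46 with 2 genes put at the bound that 3 counts a library gives.

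The p53 list held Trp53 itself and genes that p53 activates after stress. Over the 23 tested, the median log2FC was 0.24 in replicate 1 and −0.15 in replicate 2. Replicate 1 was above both control libraries and replicate 2 below both for 9 of them, and the reverse held for 1, against 8.88% and 6.79% of all genes. The other 13 did not lie on opposite sides. Ccng1, cyclin G1, had 861 CPM in replicate 1 and 338 CPM in replicate 2 against 568 and 431 CPM, a log2FC of 0.76 ± 0.21 (adjusted p = 0.779) and −0.57 ± 0.22 (adjusted p = 0.607). Trp53inp1, a stress-induced p53 partner, had 866 and 343 CPM against 578 and 547 CPM. Cdkn1a, the cyclin-dependent kinase inhibitor p21, had 262 and 178 CPM against 276 and 271 CPM, below both control libraries in both. The labelled replicates therefore straddled control for Ccng1 and Trp53inp1 and not for Cdkn1a. Over both replicates the list had 1 higher member, Zmat3 (179 and 141 CPM against 129 and 124 CPM), and 1 lower, the ribonucleotide reductase subunit Rrm2b (5.16 and 4.13 CPM against 8.73 and 8.88 CPM). Trp53 itself had 298 and 390 CPM against 263 and 299 CPM. The summed level of the 23 genes was 4220 and 2750 CPM against 3280 and 3020 CPM. In both replicates most of the difference from control lay in Ccng1 and Trp53inp1, so the sum is not a measure of the whole list.

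Over 30 tested glycolysis and hypoxia genes, the median log2FC was −0.18 in replicate 1 and 0.35 in replicate 2. Replicate 2 lay above both control libraries for 19 of the 30. Of all genes, the matching share is the sum of 3 parts, set by the place of replicate 1. These are 20.4% with replicate 1 above both control libraries too, 8.54% with it between them and 6.79% with it below both. Pdk1, the kinase that holds back pyruvate dehydrogenase, had 117 and 191 CPM against 69.9 and 80.1 CPM (log2FC 1.04 ± 0.21). The glycolytic gene Pkm had 2336 CPM in replicate 1 and 3398 CPM in replicate 2 against 2510 and 2092 CPM, and Pgk1 542 and 1026 CPM against 709 and 469 CPM. For Pgk1 replicate 1 lay between the control libraries and replicate 2 above both. Over both replicates 3 were higher (Pdk1, the glucose transporter Slc2a1 and the demethylase Kdm3a) and 1 lower (hexokinase Hk1, with 110 and 110 CPM against 144 and 152 CPM). The difference between the replicates has no test, since each is a single library.

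**Figure D3:**
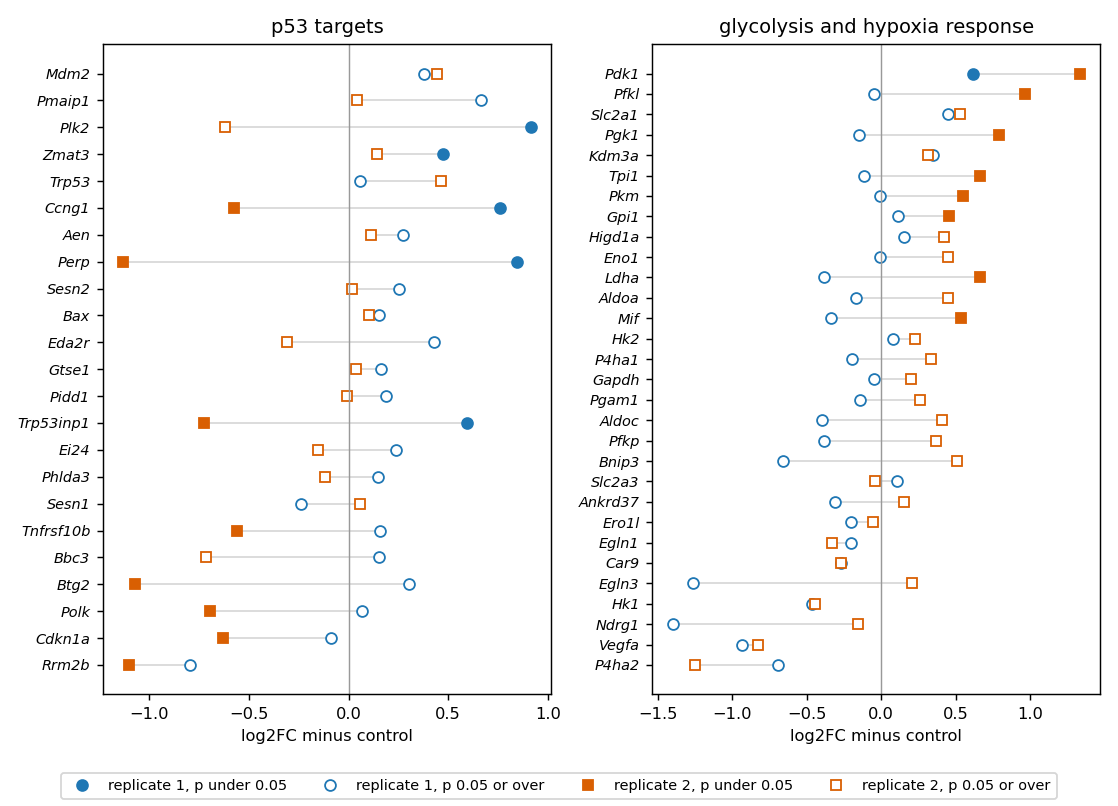
The log2FC of tested members of the p53 target list and of the glycolysis and hypoxia list (horizontal axes), for replicate 1 (circles) and replicate 2 (squares) each against both control libraries, with filled symbols at an unadjusted p under 0.05. For the p53 targets the filled circles lie right of 0 and the filled squares left of it, and for glycolysis and hypoxia the filled squares lie right of 0.

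Of 24 tested cholesterol and fatty acid synthesis genes, 7 were higher at p under 0.05 and 0 lower. In both replicates 8 lay above both control libraries, against 20.4% of all genes. Idi1, an isomerase of the mevalonate pathway, had 65.7 and 53.8 CPM against 32.5 and 25.1 CPM (log2FC 1.05 ± 0.26, adjusted p = 0.361). Hmgcs1, the HMG-CoA synthase, had 363 and 297 CPM against 277 and 180 CPM. Sqle, Lss and Nsdhl had log2FC between 0.52 and 0.60. These 5 genes were lower in control replicate 2 than in control replicate 1. The median log2FC of the list was 0.37, with 0.19 for replicate 1 alone and 0.41 for replicate 2 alone. Over both replicates it was 0.73 with control replicate 1 left out and 0.05 with control replicate 2 left out.

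Of 22 tested genes of the ATF4 and amino acid response, 6 were lower at p under 0.05 and 0 higher. In both replicates 11 lay below both control libraries, against 18.7% of all genes. Psat1, an enzyme of serine synthesis, had 192 and 240 CPM against 361 and 244 CPM, and Slc7a5, a transporter of large amino acids, 144 and 167 CPM against 207 and 199 CPM. Trib3, a pseudokinase induced by ATF4, had 18.7 and 11.5 CPM against 28.9 and 21.3 CPM, and Nupr1 7.33 and 8.38 CPM against 22.2 and 10.8 CPM. Psph and Chac1 were the other 2. Atf4 itself had 271 and 239 CPM against 336 and 231 CPM, within the control range. The median log2FC of −0.34 was −0.16 without control replicate 1.

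Of 22 tested interferon and antigen presentation genes, 1 was higher, Ddx58, and 2 lower, Ifitm3 (48.0 and 51.3 CPM against 89.6 and 70.6 CPM) and Ifit2, which had 2 and 1 counts against 11 and 6. In both replicates 10 of the 22 lay below both control libraries, against 18.7% of all genes. The median log2FC was −0.31, beside −0.31 in Cdk9-KD and 0.33 in Sox2-KD against the same control libraries.

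The 2-cell-stage genes, which a small share of ESCs expresses at any time, were low in replicate 2. Their summed level over 12 tested genes was 12.1 CPM in replicate 1 and 1.69 CPM in replicate 2, against 42.0 and 11.3 CPM. In replicate 2, 11 of the 12 had at most 3 counts, which is near the floor. Zscan4c had 33 and 2 counts in the labelled libraries against 152 and 10. The control libraries differed from each other more than replicate 1 did from control replicate 2. Only Obox6 was at an unadjusted p under 0.05 over both replicates. In bulk RNA, fewer cells of a type and less RNA per cell cannot be told apart. The Zscan4 genes are near-identical copies, so their single counts are uncertain. Among 22 germline and meiosis genes 1 was higher, the RNA helicase Ddx4 (7.915 and 3.725 CPM against 3.604 and 2.979 CPM), and 3 were lower, Hormad1, Xlr5a (2.697 and 1.571 CPM against 6.757 and 12.55 CPM, one of a family of close copies) and Stra8 (6 and 1 counts against 19 and 24).

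Of 26 tested imprinted genes, 5 were higher and 1 lower. Besides Peg10, its neighbour Sgce had 5.22 and 11.3 CPM against 5.57 and 2.18 CPM. Meg3, a maternally expressed noncoding RNA, had 294 and 608 CPM against 331 and 200 CPM. Mirg, from the same cluster, had 24.27 and 49.99 CPM against 22.47 and 16.96 CPM. Snrpn had 49.2 and 65.5 CPM against 32.1 and 40.0 CPM, and Slc22a18, the lower one, 0.117 and 0.815 CPM against 1.41 and 1.95 CPM. For Peg10, Sgce, Meg3, Mirg and Snrpn the level in replicate 2 was over that of replicate 1 and of both control libraries.

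Polycomb repressive complex 1 had 0 of 20 members at that level over both replicates. In replicate 2 alone Cbx8 had 0.873 CPM, against 3.21 and 4.24 CPM in control and 3.69 CPM in replicate 1. Cbx8, and above Alpl, U2af1, Pgk1, Pou5f1, Sox2, Gsc and Enpp5, were singled out after their values were seen. Of 13 mitochondrially encoded genes 0 reached that level. Among 17 nuclear lncRNAs and snoRNA host genes 3 were higher (Snhg14, Miat and Tug1) and 0 lower. In both replicates 10 lay above both control libraries, against 20.4% of all genes. Miat had 5.51 and 3.67 CPM against 1.80 and 1.09 CPM, and Tug1 216 and 206 CPM against 177 and 155 CPM. Malat1, a nuclear lncRNA, had 500 and 445 CPM against 635 and 109 CPM, so that control replicate 2 stood apart.

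**Figure D4:**
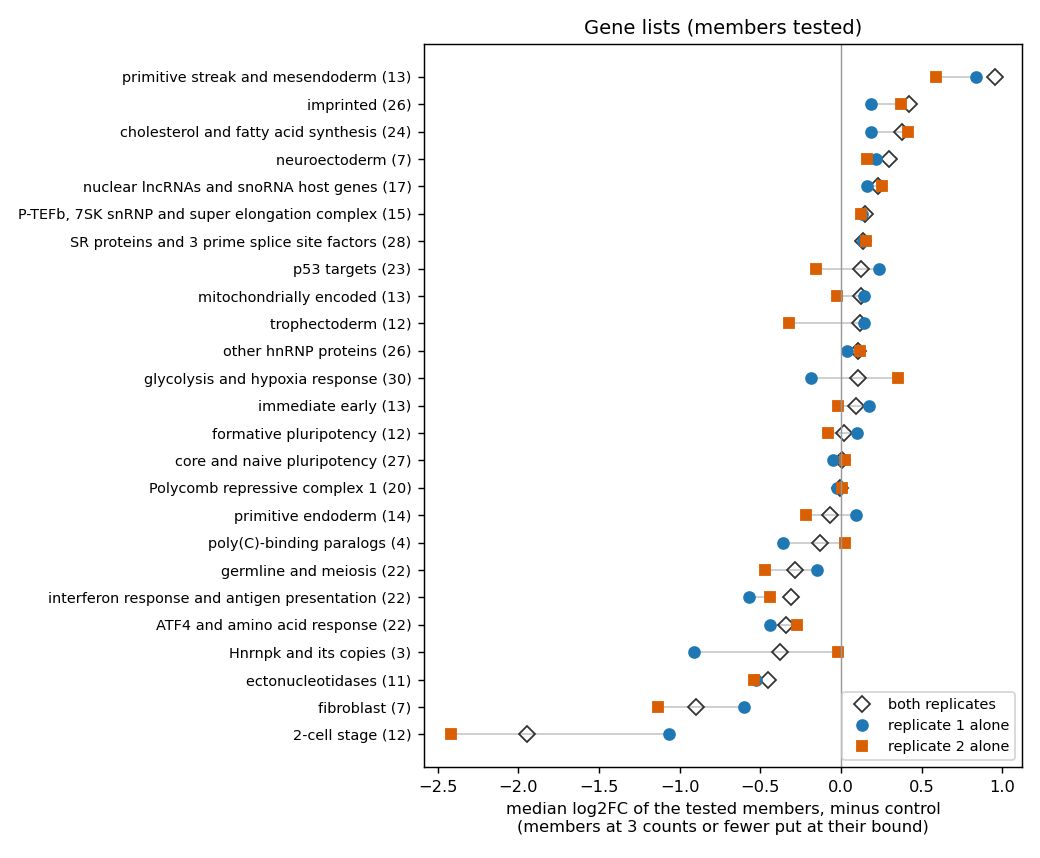
Median log2FC of the tested members of 25 gene lists (number tested in brackets) over both replicates (diamonds) and for replicate 1 (circles) and replicate 2 (squares) alone, with members at 3 counts or fewer put at their bound. The replicates lie on opposite sides of 0 for several lists, among them p53 targets, glycolysis and hypoxia, trophectoderm and primitive endoderm, and the primitive streak list lies right of 0 in both.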

How the data were processed

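RNA-seq of E14 ESCs was compared between the 2 libraries labelled hnRNPK-KD and the 2 control shRNA libraries. Per the study's methods and the submitters' processing notes, the authors ran Trimmomatic, STAR alignment (mm10, annotation GENCODE vM23) and featureCounts 2.0.1. The notes name STAR 2.7.9a and the methods another release. The deposited values are gene-level counts for each library, without normalization. Strand and the treatment of shared reads are not given in the sources used here, so copies and overlapping genes are uncertain, and isoforms cannot be separated.

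Symbols came from GENCODE vM21 for 55154 of 55335 genes. A symbol with 2 gene IDs stands for the ID with more counts. The filterByExpr rule (count 10, total 15) kept 16504 genes. The test was edgeR 4.0.16 in R 4.3.3, quasi-likelihood, TMM, a group term over all 8 libraries and Benjamini-Hochberg adjustment, with SE taken as the log2FC over the root of F. Single replicates were fitted without the other labelled library. The common biological coefficient of variation was 0.186. The scripts were tested on simulated data.

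The genes named were Hnrnpk; the 10 higher and 10 lower genes with the smallest unadjusted p among those with an average log2 CPM over 1, an absolute log2FC over 0.6 and both labelled libraries outside both control libraries on one side; 5 and 5 for each replicate alone; and list members at p under 0.05 or among the 4 most abundant. Others were singled out after their values were seen. A few genes that enter the counts are not reported here by name or in the figures. Members and lists were chosen with earlier results of these data known. No fold is given where every library of a group had at most 3 counts. Alternatives were DESeq2 1.42.0, the likelihood ratio and exact tests, other scalings and filters, a replicate block and leaving out each library. Whether shared replicate numbers pair the samples is not stated in the labels, and the main test used no pairing. Sites were matched to vM21 transcripts with up to 2 mismatches, and figures drawn with matplotlib 3.10.9 in Python 3.11.15.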

Additional observations from a re-analysis of the deposited data

How the results depend on the processing

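The count of 0 genes for both replicates depended on the test. It was 74 by DESeq2, 87 by the likelihood ratio test and 81 by the exact test, 1 without a filter (Nt5e), and 0 to 1 when 1 library was left out (Nt5e without control replicate 1). For replicate 1 alone DESeq2 gave 35 and the likelihood ratio test 47. For replicate 2 alone they gave 63 and 92, the fit of only the groups compared 25, and leaving out a control library 0 to 1 (Nt5e without control replicate 1). Against Cdk9-KD the counts were 49 by DESeq2, 67 by the likelihood ratio test, 49 by the exact test and 0 to 6 with 1 library left out, 6 without Cdk9-KD replicate 1. The quasi-likelihood counts stayed at 0 under DESeq2-type size factors, library totals and at least 10 counts in every library. The log2FC of Hnrnpk ranged from −0.70 to 0.03 (0.0278) when a library was left out, and its sign turned without hnRNPK-KD replicate 1. With the replicate number as a block, the count was 0 for both replicates (1332 genes at an unadjusted p under 0.05), 0 for replicate 1, 1 for replicate 2 (Trh) and 0 against Cdk9-KD. Replicate differences of control and the labelled libraries correlated at r = 0.14 over 12523 genes, and between groups the r ran from −0.25 to 0.26. Such correlations cannot show whether samples with the same replicate number were handled together, and the labels do not say. The cause of the differences between tests was not tested. With 2 libraries a group, p-values of the main test rest on a spread between replicates estimated over all groups of the series together. A group left with 1 library adds nothing to that spread, which covers only the libraries of this series.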
